A study of Mus musculus with 12 samples.

Results

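The genes of the mitochondrial respiratory chain and of ATP synthase were examined in mouse bone marrow–derived macrophages (BMDMs), which are macrophages grown in culture from marrow precursors. They were chosen by symbol: protein-coding genes whose names start with Ndufa, Ndufb, Ndufc, Ndufs, Ndufv, Uqcr, Cox4i, Cox5, Cox6, Cox7, Cox8, or Atp5, together with Sdha, Sdhb, Sdhc, Sdhd, Cyc1, and the mt-Nd, mt-Co, mt-Cyt, and mt-Atp genes. This gave 107 of the 43626 genes counted, 94 in the nuclear genome and 13 in the mitochondrial genome. PolyA-enriched RNA was sequenced from 12 libraries, 3 for each of 4 conditions: PBS, 3′SL (labelled HMO), LPS, and LPS with 3′SL (LPS + 3′SL). LPS, a bacterial outer membrane glycolipid that activates TLR4, was given at 10 ng/mL, and 3′SL (3′-sialyllactose, a sialylated oligosaccharide of human milk) at 100 μg/mL, for 6 hours. Strain, age, and sex of the marrow donors were not given in the labels, nor were the cultures or animals behind each library. The study describes its RNA-Seq replicates as independent and biological, and p-values here measure the spread between these libraries.

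The respiratory chain passes electrons from NADH through complex I, or from succinate through complex II, to ubiquinone, and on through complex III and cytochrome c to complex IV, where oxygen is reduced. Complexes I, III, and IV move protons across the inner membrane, and ATP synthase (complex V) uses the gradient to make ATP. Complex II is encoded entirely in the nucleus, whereas the other complexes combine nuclear subunits with a few subunits transcribed from mitochondrial DNA, so both genomes have to supply their parts. In macrophages activated by LPS, metabolism is known to turn from respiration toward glycolysis, succinate accumulates, and complex I can run in reverse to make superoxide.

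Of the 94 nuclear genes, 36 encode complex I subunits, 4 complex II, 9 complex III, 20 complex IV, and 17 ATP synthase or proteins named for it, and 8 are complex I assembly factors (the Ndufaf genes), which the prefix Ndufa brought in. After a filter on low counts, 90 nuclear and 8 mitochondrial genes were tested among 14308 genes. The 4 nuclear genes not tested were Cox7b2, Cox8b, and Cox8c, isoforms of testis or muscle for which no read was counted in any library, and Ndufa4l2, a hypoxia-linked paralog of Ndufa4, with 0 to 16 reads. With no read in a library, up to 3 reads remain possible, and this limit covers counting error only.

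Not all mitochondrial genes could be counted. Only 7 of the 13 had usable depth (mt-Nd1, mt-Nd2, mt-Nd4, mt-Nd5, mt-Nd6, mt-Cytb, and mt-Co1), with 6707 to 165731 reads per library, and none of the other 6 had more than 21 reads in any library. For 5 of those 6 (mt-Nd3, mt-Nd4l, mt-Co2, mt-Co3, and mt-Atp6), 98.0% to 100% of the 50-nucleotide words of the transcript also occur in annotated nuclear copies of mitochondrial DNA, and reads that aligned to more than 1 place (8634639 to 11273250 alignments per library) were not assigned to a gene. mt-Atp8 shares no such word with another annotated gene and had 0 to 5 reads, and the reason was not tested. The first 60 bases of mt-Co2 (chrM:7013-7072, plus strand, GENCODE M21 transcripts of GRCm38) are shown because the same bases begin the annotated nuclear pseudogene Gm28661 (chr1:24614885-24615565, minus strand), so a read from this stretch has no unique place:
mt-Co2: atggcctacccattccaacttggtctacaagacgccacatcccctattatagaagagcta

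The mt-Co2 values below therefore rest on 8 to 21 reads per library. The words of mt-Nd4 and mt-Co1 were shared in 62.2% and 51.1%, so their levels may be too low, while mt-Nd1, mt-Nd6, and mt-Cytb shared none. Among nuclear genes, 42 shared no words and 8 shared at least 20%, among them Ndufaf2 (64.1%), Atp5o (41.6%), Atp5g2 (38.4%), Uqcrb (25.5%), and Cox7c (22.1%), whose levels are uncertain. Exons of 29 nuclear members overlap a gene on the opposite strand, and whether counting used the strand was not given in the sources used here.

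Libraries held 20411741 to 26851890 reads on genes. They fell into 3 sets of 4 by their residuals, each with 1 library of each condition and consecutive running numbers in the labels, and residuals correlated at 0.596 within and -0.346 between sets, so within-set log2 ratios are given beside pooled values. All 8 macrophage markers were expressed, and erythroid markers were at 0. Markers of LPS response summed to 25.2 to 188 CPM (counts scaled to 1e+06 per library after TMM) without LPS and to 5556 to 14275 CPM with it. The 10 stromal markers summed to 769 to 907 CPM in set 1, 34.1 to 58.6 in set 2, and 92.0 to 145 in set 3, and the 8 neutrophil markers to 139 to 547 CPM in PBS and 221 to 1015 in LPS libraries, and their part in the results was not tested. Fewer cells of a type and less RNA per cell cannot be told apart in these bulk libraries.

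Scaling sets the direction of small changes under LPS. TMM factors, which align the bulk of genes, were 0.700 to 1.298 and for LPS against PBS they put the median over all genes at -0.06 on the log2 scale. Scaling by total counts put it at -0.71. The 20 most abundant genes took 15.0% to 15.5% of reads in PBS and 14.7% to 15.3% in LPS libraries. Changes are therefore read against the median of all genes.

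Under basal conditions, the levels of the complexes differed mainly between genomes. Per kilobase of exon, the median level in PBS was 17.9 CPM per kb for the 36 nuclear complex I subunits, 39.6 for complex II, 35.1 for complex III, 32.5 for the 16 complex IV genes tested, and 31.9 for ATP synthase. The complex I assembly factors lay lower, at a median of 3.61 CPM per kb. The 5 countable mitochondrial complex I genes had a median of 603 CPM per kb, mt-Cytb 1361, and mt-Co1, the catalytic subunit of complex IV, 2966. The most abundant nuclear members per kilobase were Cox6b1 (154 CPM per kb), Atp5a1 (142), and Cox4i1 (139), while tissue-restricted complex IV isoforms were near the floor: Cox4i2 stood at 1.04 CPM per kb beside 139 for Cox4i1, Cox6a2 at 1.2 beside 119 for Cox6a1, Cox6b2 at 0.388 beside 154 for Cox6b1, and Cox7a1 at 2.96 beside 54.4 for Cox7a2. Exon lengths were unions over isoforms, which lowers the level of genes with long rare exons.

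For LPS against PBS, a smaller share of nuclear members than of all genes was called. In edgeR's quasi-likelihood test, 17 of the 90 nuclear members passed an adjusted p under 0.05 (called below), 10 higher and 7 lower in LPS than in PBS, whereas 46.6% of all genes tested were called (22.4% higher and 24.2% lower). With a change of at least 1.5-fold also required, 4 nuclear members remained, all lower (Ndufaf7, Ndufaf4, Atp5s, and Ndufab1), against 38.5% of all genes. The median log2 fold change of nuclear members was 0.07, with 61 of 90 above the median of all genes, and 82 of 90 lay within 1.5-fold, as did 48.6% of all genes. Within sets the median was 0.05, 0.18, and -0.04, so its sign was not the same in all sets. On simulated data with set effects as found and 200 of 13951 genes changed 2-fold, the fit without sets recovered 17.4% of them. A fit with the sets as a block recovered 84.3%. Far more genes were called here, and most nuclear members lay within 1.5-fold. These shares therefore do not give the recovery for members, and a member not called may still have changed. With the sets as a block, 19 nuclear members were called higher and 8 lower, against 59.7% of all genes called. With total counts 56 were lower and none higher, against 53.3% of all genes lower, and every member called higher by TMM then had a negative log2 fold change that was still above the median of all genes.

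**Figure D1:**
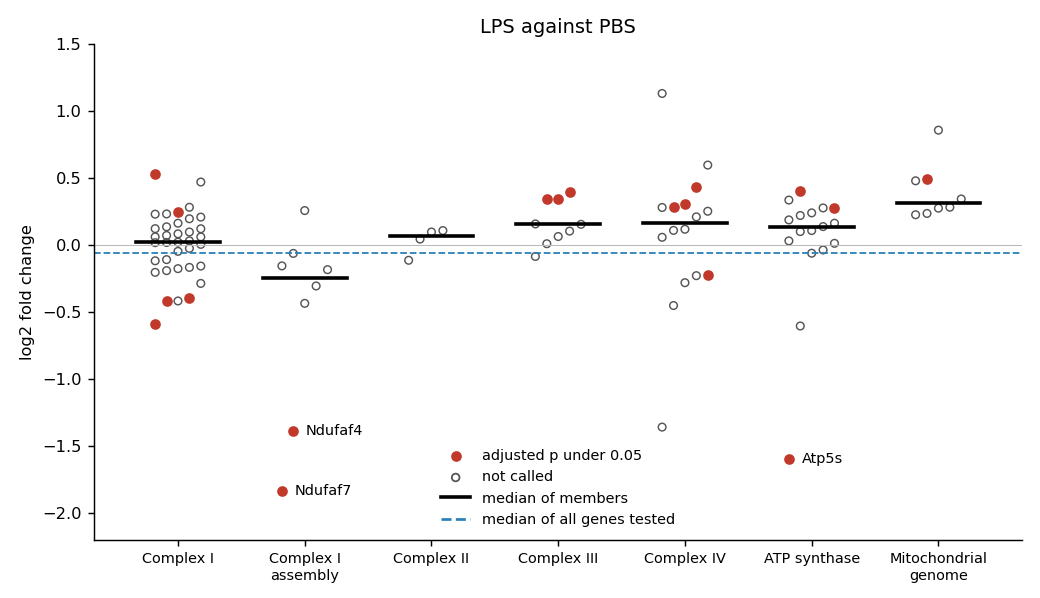
Log2 fold change of each member tested, LPS against PBS (y axis), by complex (x axis). Filled points passed an adjusted p under 0.05, black bars are medians of the members, and the dashed line is the median of all genes tested. Most subunits lie within 0.5 of 0, and 4 members lie below -1, the called Ndufaf7, Ndufaf4, and Atp5s and the uncalled Cox4i2.

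Among the 36 nuclear complex I subunits, 2 rose and 3 fell (13.9% called, against 46.6% of all genes), and the median log2 fold change was 0.03. With the sets as a block, 5 of these subunits were called higher and 4 lower, against 59.7% of all genes called. Ndufs4, an accessory subunit of the NADH-oxidizing arm needed for its stable attachment, stood at 26.8, 27.9, and 28.5 CPM in PBS and at 38.9, 41.1, and 40.1 CPM in LPS libraries. The groups did not overlap, and the change of 0.53 ± 0.08 on the log2 scale (SE, n = 3 and 3, adjusted p = 4.0e-04 in edgeR) was 0.53, 0.55, and 0.48 within the 3 sets. Ndufa1, a small membrane subunit, rose by 0.25 ± 0.09 (adjusted p = 0.039 in edgeR), from 26.3 ± 1.6 CPM (SD) to 31.2 ± 1.2.

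The complex I subunits that fell include Ndufs7 and Ndufs8, which hold iron-sulfur clusters close to the ubiquinone site. Ndufs8 stood at 31.0, 34.1, and 34.1 CPM in PBS and at 26.9, 28.4, and 18.7 CPM in LPS libraries, a log2 fold change of -0.42 ± 0.15 (adjusted p = 0.043 in edgeR). Ndufs7 changed by -0.40 ± 0.15 (adjusted p = 0.044 in edgeR), with within-set values of -0.40, -0.01, and -0.76, so set 2 showed almost none of it. Ndufab1, the mitochondrial acyl carrier protein that also sits in complex I, stood at 16.0, 16.5, and 19.5 CPM in PBS and at 12.1, 11.4, and 11.0 CPM in LPS libraries, a fall by 0.59 ± 0.15 on the log2 scale (adjusted p = 0.0078 in edgeR). Ndufs7 and Ndufs8 were not called by DESeq2 (adjusted p = 0.064 and 0.054). The core subunits Ndufv1 and Ndufs1, which take up electrons from NADH, had log2 fold changes of -0.05 ± 0.14 and -0.16 ± 0.15 and were not called.

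The complex I assembly factors, which build the complex but are not part of it, held 2 of the 3 largest called changes among members, beside Atp5s. Of the 8 tested, 25% were called lower and 0% higher, against 24.2% and 22.4% of all genes. Ndufaf7, a methyltransferase that acts during assembly, stood at 10.5, 11.2, and 9.65 CPM in PBS and at 3.27, 3.15, and 2.33 CPM in LPS libraries. No LPS library came near a PBS library, and the log2 fold change was -1.84 ± 0.37 (3.57-fold lower, adjusted p = 0.0019 in edgeR). Ndufaf4 stood at 15.6, 15.1, and 18.9 CPM in PBS and at 8.64, 6.05, and 4.17 CPM in LPS libraries, a log2 fold change of -1.39 ± 0.32 (2.62-fold lower, adjusted p = 0.0042 in edgeR) with within-set values from -0.81 to -2.05. The other 6 factors were not called and ranged from -0.44 (Ndufaf6) to 0.26 (Ndufaf5). These are low genes, with 28 to 366 reads per library on Ndufaf7 and 67 to 560 on Ndufaf4.

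Complex II, which is succinate dehydrogenase of the citrate cycle as well, did not pass the test for any of its 4 genes. Sdha, the flavoprotein that oxidizes succinate, stood at 193, 201, and 167 CPM in PBS and at 196, 198, and 184 CPM in LPS libraries, and the log2 fold change was 0.04 ± 0.12 (adjusted p = 0.80 in edgeR). Sdhb, the iron-sulfur subunit, had -0.11 ± 0.09, and the membrane anchors Sdhc and Sdhd had 0.11 ± 0.10 and 0.10 ± 0.14. The groups overlapped for all 4 genes.

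In complex III, 3 of 9 nuclear genes rose and none fell (33.3% called, against 46.6% of all genes). With the sets as a block the counts were again 3 and 0. The Rieske iron-sulfur protein Uqcrfs1 stood at 49.9, 50.1, and 43.5 CPM in PBS and at 58.3, 60.8, and 62.6 CPM in LPS libraries (log2 fold change 0.34 ± 0.09, adjusted p = 0.011 in edgeR). The core protein Uqcrc2 stood at 71.9, 78.5, and 62.1 CPM in PBS and at 98.8, 99.1, and 81.3 CPM in LPS libraries (0.39 ± 0.12, adjusted p = 0.023 in edgeR), and the small subunit Uqcrb rose by 0.34 ± 0.10 (adjusted p = 0.016 in edgeR). PBS and LPS libraries did not overlap for these 3 genes. Cyc1, the cytochrome c1 that hands electrons on, had 0.06 ± 0.09 and was not called.

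In complex IV, 3 of the 16 nuclear genes tested rose and 1 fell (25% called, against 46.6% of all genes). With the sets as a block, 6 were called higher and 1 lower. Cox7a2, the widely expressed isoform of subunit VIIa, stood at 53.7, 49.2, and 51.1 CPM in PBS and at 68.8, 71.0, and 68.0 CPM in LPS libraries (0.43 ± 0.10, adjusted p = 0.0035 in edgeR). Cox6b1 (0.31 ± 0.08, adjusted p = 0.011) and Cox6c (0.29 ± 0.09, adjusted p = 0.021) also rose. Cox7a2l, a Cox7a2 relative that joins complexes III and IV into supercomplexes, went the other way, from 73.6, 66.4, and 69.1 CPM in PBS to 58.8, 60.1, and 59.9 CPM in LPS libraries (-0.23 ± 0.08, adjusted p = 0.043 in edgeR), and DESeq2 did not call it (adjusted p = 0.076).

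Isoform pairs of complex IV were not called beyond these, but with the sets as a block edgeR called Cox4i1 (adjusted p = 0.026), Ndufa4 (0.015), and Cox6a2 (0.041) higher, and DESeq2 called Cox4i1 and Ndufa4. Cox4i1 had a log2 fold change of 0.21 ± 0.09 and its lung- and hypoxia-linked isoform Cox4i2 -1.36 ± 0.66, on 1 to 28 reads per library. Cox6a1 had 0.12 ± 0.11 and the muscle isoform Cox6a2 1.13 ± 0.52, on 10 to 56 reads. Cox6b2 had -0.45 ± 0.59, Cox7a1 0.60 ± 0.34, Cox7b 0.11 ± 0.11, Cox8a 0.06 ± 0.13, and Ndufa4, a subunit of complex IV despite its name, 0.25 ± 0.11 (adjusted p = 0.090 in edgeR).

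In ATP synthase, 2 of 17 genes rose and 1 fell (17.6% called, against 46.6% of all genes). With the sets as a block, 5 were called higher and 1 lower. Atp5f1, subunit b of the peripheral stalk, stood at 119, 113, and 122 CPM in PBS and at 153, 153, and 162 CPM in LPS libraries, with no overlap (0.40 ± 0.08, adjusted p = 0.0018 in edgeR). The catalytic subunit Atp5b rose by 0.28 ± 0.10 (adjusted p = 0.043 in edgeR), from 519 ± 14 CPM to 629 ± 42, while the partner subunit Atp5a1 had 0.24 ± 0.16 and was not called, though it was with the sets as a block (adjusted p = 0.011 in edgeR). Atp5s, also called coupling factor B or Dmac2l and not a structural subunit, stood at 4.51, 4.63, and 2.66 CPM in PBS and at 1.37, 0.872, and 1.66 CPM in LPS libraries, 3.03-fold lower (log2 fold change -1.60 ± 0.42, adjusted p = 0.0090 in edgeR), on 15 to 157 reads per library.

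**Figure D2:**
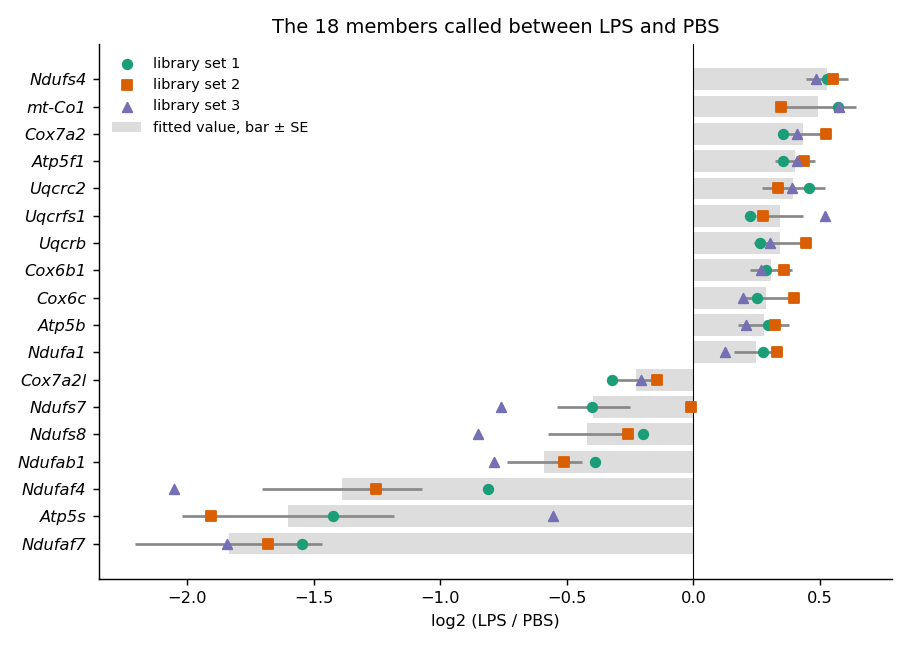
The 18 members called between LPS and PBS (y axis), with the fitted log2 fold change as a bar with its SE and the log2 ratio of the LPS to the PBS library of each set as points (x axis). In all 3 sets the 11 members called higher are above 0 and the 7 called lower are below 0. The calls were made on these same libraries, so this is no separate support. The spread between sets is widest for Ndufaf4 and Atp5s.

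All 18 called members, mt-Co1 included, went the same way in each set, which adds no support because they were called on these libraries. Across all 98 members tested, 41 were higher in all 3 sets and 19 lower in all 3. The same counts were not made over all genes. The call of 9 of the 18 held whichever library was left out, whereas Atp5b, Ndufa1, Ndufs8, Ndufs7, and Cox7a2l lost theirs in 9 or 10 of the 12 cases. The number of nuclear calls fell from 17 to 10 without the set 1 PBS library and to 11 without the set 1 LPS, set 2 PBS, or set 2 LPS library.

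The countable mitochondrial genes had higher fitted levels in LPS than in PBS, with 1 call. This was 12.5% of the 8 mitochondrial genes tested, against 46.6% of all genes called and 22.4% called higher. mt-Co1 stood at 4759, 5062, and 3926 CPM in PBS and at 7068, 6441, and 5841 CPM in LPS libraries, without overlap, and rose by 0.49 ± 0.15 on the log2 scale (adjusted p = 0.020 in edgeR). The other 6 countable genes had log2 fold changes from 0.23 (mt-Nd2) to 0.48 (mt-Nd5), and their PBS and LPS libraries overlapped. mt-Cytb, for example, stood at 1672, 1778, and 1222 CPM in PBS and at 2178, 2005, and 1468 CPM in LPS libraries. mt-Nd1 stood at 1301, 1453, and 937 CPM in PBS and at 1758, 1588, and 1140 CPM in LPS libraries. In each gene the set 3 library was the lowest of the 3, in PBS and in LPS alike.

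The median over the 8 mitochondrial genes tested was 0.31, with all 8 above the median of all genes, and 0.40, 0.15, and 0.41 within the sets. The median was 0.20 without the set 1 LPS library and 0.15 without the set 3 PBS library, and mt-Co1 (0.39 without it) was then not called, nor was it without the set 1 LPS library. With the sets as a block, mt-Co1, mt-Nd4, mt-Nd5, and mt-Cytb were called higher, against 59.7% of all genes called. With total counts none was called and the median was -0.32, again above the -0.71 of all genes. mt-Co2 had 0.86 ± 0.37 on few reads and was not called.

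Counts can also be set against each other within a library. Shares of gene counts amount to scaling by total counts, whereas the ratio of mitochondrial to nuclear members needs no scaling. Mitochondrial members took 1.27% ± 0.25 of gene counts in PBS, 1.49% ± 0.13 in 3′SL, 1.07% ± 0.27 in LPS, and 1.14% ± 0.21 in LPS + 3′SL (SD, n = 3 each). Nuclear members took 0.586% ± 0.034, 0.537% ± 0.078, 0.412% ± 0.068, and 0.431% ± 0.082. The log2 ratio of the 7 countable mitochondrial genes to the 94 nuclear genes was 1.13, 1.31, and 0.83 in PBS and 1.52, 1.33, and 1.24 in LPS libraries, which overlap, and within sets it was higher by 0.39, 0.02, and 0.41 in LPS. In 3′SL libraries it was 1.33, 1.51, and 1.60, which lie above the PBS libraries, by 0.19, 0.19, and 0.77 within sets. Without mt-Co1, which made up 43.6% to 54.0% of the mitochondrial counts, the ratio was 0.26, 0.49, and -0.12 in PBS, 0.36, 0.53, and 0.65 in 3′SL, and 0.60, 0.41, and 0.18 in LPS libraries, so 3′SL and PBS libraries then overlapped and set 2 was lower in LPS than in PBS. The ratio in LPS + 3′SL was 1.45, 1.34, and 1.45, within the range of the LPS libraries. These ratios are descriptions and were not tested.

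**Figure D3:**
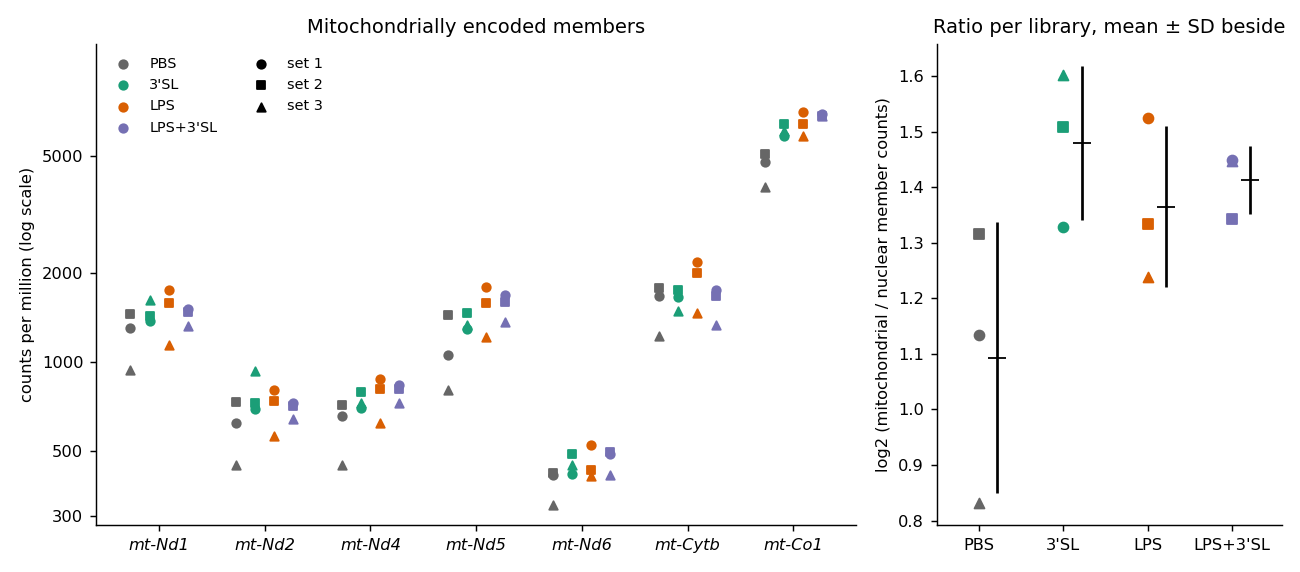
Left, CPM of the 7 countable mitochondrial genes in each library (y axis, log scale), with color for the condition and shape for the library set. Right, log2 ratio of their summed counts to those of the 94 nuclear members per library, with mean ± SD beside the points. The PBS library of set 3 has the lowest ratio, 0.83, and mt-Co1 is lower in all PBS libraries than in any other.

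For 3′SL under basal conditions, the calls depended on the test used and on whether the library sets were in the fit. Without the sets in the fit, edgeR called none of the 14308 genes (0%), with 1439 at an unadjusted p under 0.05 and 164 called by DESeq2. Of the members, 2 had an unadjusted p under 0.05, and these were mt-Co1 and mt-Co2. mt-Co1 stood at 5866, 6425, and 6083 CPM in 3′SL libraries, above the PBS values given before, with a log2 fold change of 0.42 ± 0.15 (adjusted p = 0.42 in edgeR) and within-set values of 0.30, 0.34, and 0.63. DESeq2 called mt-Co1 (adjusted p = 0.022), and so did the block fit (adjusted p = 0.027 in edgeR), in which 5.88% of all genes were called. mt-Co2 had 0.86 ± 0.37 and mt-Nd2 0.39 ± 0.20, the next lowest p, and mt-Nd2 had 1.06 within set 3 and no more than 0.16 within the other sets.

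The medians of mitochondrial and nuclear members lay on opposite sides of 0 for 3′SL against PBS. The median of the 8 mitochondrial genes was 0.30, with all 8 above the median of all genes, but it was 0.12 without the set 3 PBS library, 0.46 without the set 2 PBS library, and 0.13, 0.08, and 0.66 within the sets. The median of the 90 nuclear genes was -0.07, with 20 above the median of all genes, and -0.02, -0.03, and -0.15 within the sets. By complex the nuclear median was -0.08 for complex I, -0.06 for complex II, -0.03 for complex III, -0.04 for complex IV, -0.05 for ATP synthase, and -0.31 for the assembly factors. The lowest assembly factor was Ndufaf7, at -0.53 ± 0.35, and Cyc1 had -0.17 ± 0.09. No nuclear member reached an unadjusted p under 0.05.

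**Figure D4:**
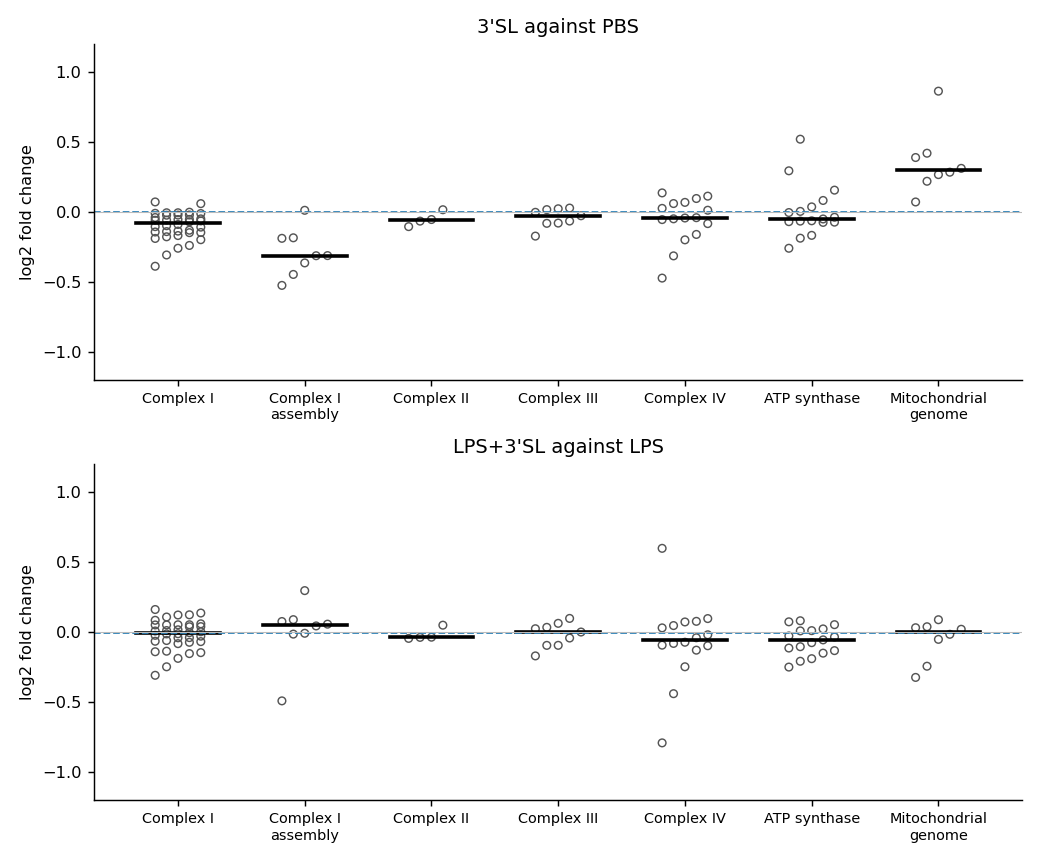
Log2 fold change of each member tested for 3′SL against PBS (top) and LPS + 3′SL against LPS (bottom), by complex, with black bars at the medians of the members and a dashed line at the median of all genes tested. Without the library set block edgeR called no member in either comparison, whereas DESeq2 called mt-Co1 for 3′SL against PBS. The mitochondrial median of 0.30 at the top is 0.00 at the bottom, where the sets differ in sign.

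Under LPS stimulation, no member was called for 3′SL. edgeR called none of all genes (0%), with 995 at an unadjusted p under 0.05 and 171 called by DESeq2, none of them a member. With the sets as a block 2.43% of all genes were called, and no member. The nuclear median was -0.02 and the mitochondrial median 0.00, but by set the latter was -0.12, 0.01, and 0.18, and it ran from -0.14 to 0.12 with 1 library left out. The lowest p belonged to Ndufc1, a small complex I subunit, at 16.6, 19.9, and 15.8 CPM in LPS and 15.5, 14.8, and 11.9 CPM in LPS + 3′SL libraries (-0.31 ± 0.13, adjusted p = 0.68 in edgeR). Cox7a1 (-0.79 ± 0.35) and Uqcrb (-0.17 ± 0.10) followed, and Ndufc1 and Cox7a1 were the members with an unadjusted p under 0.05. mt-Co1 stood at 6930, 6810, and 6821 CPM in LPS + 3′SL libraries, within the range of the LPS libraries.

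The interaction, which asks whether 3′SL acts differently with and without LPS, called none of all genes (0%) in edgeR, with 872 at an unadjusted p under 0.05, and DESeq2 called 49, none of them a member. All 8 mitochondrial genes had a negative value, and their median was -0.32, and by set it was -0.30, -0.11, and -0.52. This median ran from -0.45 to -0.16 with 1 library left out. It was -0.16 without the set 3 PBS library and -0.19 without the set 1 LPS library. The 8 genes are not 8 separate results, because the same libraries enter each value. The same PBS libraries also enter the LPS and 3′SL comparisons above. mt-Co1 had -0.33 ± 0.21 (adjusted p = 0.85 in edgeR). mt-Co2 (-1.19 ± 0.52, on few reads) was the 1 member with an unadjusted p under 0.05, followed by Ndufs7 (0.38 ± 0.21) and Cyc1 (0.21 ± 0.13). The nuclear median was 0.04.

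The effect of LPS was also measured with 3′SL present, as LPS + 3′SL against 3′SL, on other libraries than LPS against PBS but in the same fit and the same library sets. Here 36% of all genes were called (17.8% higher and 18.3% lower), and of the members 8 rose and 4 fell, none of them mitochondrial. Ndufs4 rose by 0.50 ± 0.08 (adjusted p = 8.2e-04 in edgeR), Cox7a2 by 0.39 ± 0.10, Atp5f1 by 0.34 ± 0.08, Uqcrc2 by 0.37 ± 0.12, Uqcrfs1 by 0.33 ± 0.09, and Cox6b1 by 0.26 ± 0.08. Ndufaf7 (-1.22 ± 0.36), Ndufaf4 (adjusted p = 0.029 in edgeR), Atp5s (-1.33 ± 0.42), and Cox7a2l (-0.36 ± 0.08, adjusted p = 0.0060 in edgeR) fell. These 10 are among the 18 members called without 3′SL. The same overlap was not counted over all genes. Cyc1 (0.27 ± 0.09) was called here and not there, and its interaction was not called. Without the set 2 library of either condition, 7 members were called. The nuclear median was 0.10 and the mitochondrial median 0.01, against -0.07 for all genes.

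Genes around the complexes, from lists chosen with earlier results of these data known, were described by counts for LPS against PBS. They are read against the 22.4% of all genes called higher and 24.2% called lower. Among 36 other assembly factors tested, 6 rose and 8 fell (16.7% and 22.2%). Coa5, a complex IV assembly factor, rose from 155 ± 8.5 to 522 ± 34 CPM (log2 fold change 1.75 ± 0.11, adjusted p = 1.3e-06 in edgeR) and Sco1, a copper chaperone of complex IV, by 1.51 ± 0.16. Sdhaf1, needed for the iron-sulfur clusters of Sdhb, fell by 1.77 ± 0.37 on the log2 scale, and Coa6, another copper factor of complex IV, by 1.41 ± 0.24. The median of these 36 genes was -0.17.

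Among 28 genes that maintain or express mitochondrial DNA, 4 rose and 9 fell (14.3% and 32.1%). The RNA-degrading Pnpt1 rose by 2.43 ± 0.12 and the RNA-binding Slirp by 0.93 ± 0.13, whereas the helicase Twnk fell by 1.65 ± 0.27 and Trmt10c, which processes mitochondrial tRNA, by 1.30 ± 0.21. Tfam, which packages mitochondrial DNA, had 0.08 ± 0.13 and was not called. Of 76 mitochondrial ribosomal proteins 7 rose and 25 fell (9.21% and 32.9%), and the median was -0.22 (by set -0.20, -0.01, and -0.34). Mrpl52 (1.96 ± 0.31) and Mrpl39 (1.31 ± 0.16) rose, and Mrpl41 (-1.81 ± 0.27) and Mrpl49 (-1.22 ± 0.25) fell.

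Of 13 regulators of mitochondrial genes, 3 rose and 4 fell (23.1% and 30.8%). Hif1a, the oxygen-regulated factor, rose by 1.42 ± 0.21 and the nuclear receptor Esrra by 0.71 ± 0.14. Gabpa, an ETS factor, rose by 0.36 ± 0.10 with TMM and had -0.30 with total counts. Myc fell by 1.45 ± 0.44, Tfb2m by 1.01 ± 0.22, the coactivator Pprc1 by 0.81 ± 0.19, and Gabpb2 by 0.57 ± 0.13. Nrf1, which binds promoters of many respiratory genes, had 0.15 ± 0.12 and was not called.

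Of 11 enzymes that feed or act on the chain in activated macrophages, 5 were called higher and 5 lower (45.5% each). The list was made for activated cells with earlier results known, so its share is not ranked against the other lists. Nos2, whose product nitric oxide inhibits complex IV, rose from 0.561 ± 0.064 to 827 ± 447 CPM (log2 fold change 10.52 ± 0.77, adjusted p = 2.5e-06 in edgeR), and Acod1, which makes the complex II inhibitor itaconate, from 11.1 ± 5.6 to 7672 ± 407 CPM (9.44 ± 0.88, adjusted p = 1.1e-05 in edgeR). Coq10a, a ubiquinone-binding protein, fell by 1.78 ± 0.21, and Dhodh, which passes electrons from pyrimidine synthesis to ubiquinone, by 1.28 ± 0.27. For 3′SL, edgeR without the block called none of these genes, and with the block it called 2 higher and 1 lower against PBS and 2 lower under LPS stimulation.

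In the remaining lists, 15.4% of the supercomplex and stability factors were called higher and 23.1% lower. For citrate cycle and pyruvate genes the shares were 10% and 5%, and for carriers 20% and 0%. Of 13 supercomplex and stability factors 2 rose and 3 fell: AA467197 (Nmes1), a Ndufa4 relative in activated cells, rose by 4.98 ± 0.89 on the log2 scale with library values that ranged widely (153 ± 105 CPM in LPS), Immt by 0.31 ± 0.11 with TMM but had -0.35 with total counts, and Aifm1 (-0.75 ± 0.15) and Chchd4 (-0.71 ± 0.24) fell. Of 20 citrate cycle and pyruvate genes 2 rose and 1 fell: Mpc1 (0.65 ± 0.24), Dld (0.57 ± 0.08 with TMM and -0.08 with total counts), and Idh2 (-0.82 ± 0.30). Of 5 carriers, cytochrome c (Cycs) rose from 1.75 ± 0.41 to 4.27 ± 0.34 CPM (1.28 ± 0.24). Words shared with other genes were counted for members only, so how fully Cycs and other list genes were counted was not tested. Without the library set block, edgeR called no gene of these 8 lists in either comparison of 3′SL or in the interaction. With the block, it called 1 carrier, 1 assembly factor, 1 citrate cycle gene, and 1 ribosomal protein lower in 3′SL than in PBS, 1 supercomplex factor lower under LPS stimulation, and 2 enzymes with a negative interaction, beside the enzymes given above.

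**Figure D5:**
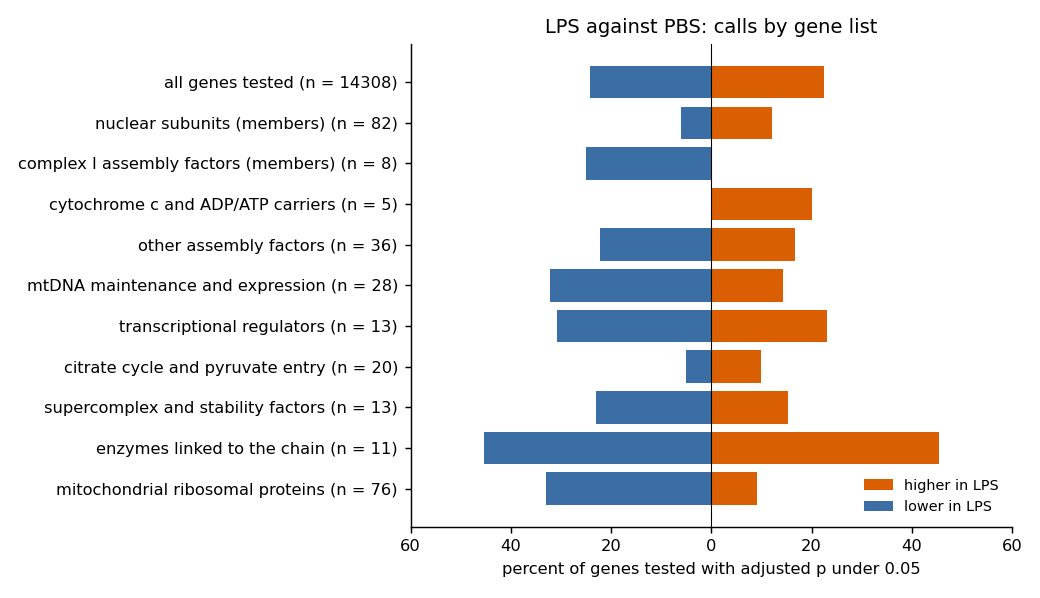
Percent of the genes tested in each list that were called higher (right) or lower (left) in LPS than in PBS, with the number tested beside each name and all genes tested at the top. Nuclear subunits were called in 12.2% (higher) and 6.1% (lower), and mitochondrial ribosomal proteins in 9.21% and 32.9%. The enzymes linked to the chain were listed for activated macrophages.

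Promoters of the nuclear members were searched for the motifs of factors known to bind respiratory genes. RefSeq windows of 300 bases (250 before to 50 after the start, GRCm38.p6) matched 76 of the 94 nuclear members by symbol or synonym. The letters searched on both strands were GCGCANGCG for NRF1, CCGGAAG for ETS factors such as GABPA, and AAGATGGCG for YY1, and no ETS match overlapped a YY1 match. NRF1 letters were found in 28.9% of these members, against 7.03% of all 27025 genes with a window and 15.1% of the 10089 of those tested here. ETS letters were in 23.7% (9.93% and 20.0%), YY1 letters in 10.5% (1.64% and 3.64%), and at least 1 of the 3 in 51.3% (16.5% and 33.7%). By complex, at least 1 was present in 3 of 3 complex II genes, 10 of 15 ATP synthase genes, 16 of 32 complex I genes, 3 of 5 complex III genes, and 3 of 14 complex IV genes. A match is a description of letters and not of binding.

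Of the members called between LPS and PBS, 14 had a window, and 5 of these held a match: 2 of 7 that rose and 3 of 7 that fell. Their windows are printed 5′ to 3′ on the gene's strand with matching letters in capitals, because YY1 and ETS letters occur here in genes that rose and in genes that fell. The YY1 letters lie just after the start in Ndufs4, which rose (chr13:114388045-114388344, minus strand), and in Ndufs7, which fell (chr10:80249199-80249498, plus strand). The ETS letters lie on the other strand in Cox6b1, which rose (chr7:30626065-30626364, minus strand), and in Ndufs8, which fell (chr19:3912725-3913024, minus strand), and Ndufaf4, which fell (chr4:24897833-24898132, plus strand), holds NRF1 letters on both strands, shifted by 1 base:
Ndufs4: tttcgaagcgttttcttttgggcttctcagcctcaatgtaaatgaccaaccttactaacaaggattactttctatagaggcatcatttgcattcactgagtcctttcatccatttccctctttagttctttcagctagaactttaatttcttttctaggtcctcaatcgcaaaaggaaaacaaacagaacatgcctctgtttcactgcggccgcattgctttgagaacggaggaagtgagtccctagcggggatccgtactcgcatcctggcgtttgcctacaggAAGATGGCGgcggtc
Ndufs7: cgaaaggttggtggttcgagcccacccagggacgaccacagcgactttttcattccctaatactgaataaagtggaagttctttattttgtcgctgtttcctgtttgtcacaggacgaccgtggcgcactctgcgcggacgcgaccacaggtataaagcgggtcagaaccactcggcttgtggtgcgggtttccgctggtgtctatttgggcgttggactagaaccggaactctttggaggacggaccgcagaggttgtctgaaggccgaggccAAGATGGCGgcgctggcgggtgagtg
Cox6b1: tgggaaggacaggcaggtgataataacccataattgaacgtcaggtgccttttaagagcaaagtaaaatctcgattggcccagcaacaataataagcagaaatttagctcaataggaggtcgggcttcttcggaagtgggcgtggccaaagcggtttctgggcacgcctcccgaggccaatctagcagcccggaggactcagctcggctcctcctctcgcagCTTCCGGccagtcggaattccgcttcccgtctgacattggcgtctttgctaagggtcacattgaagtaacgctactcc
Ndufs8: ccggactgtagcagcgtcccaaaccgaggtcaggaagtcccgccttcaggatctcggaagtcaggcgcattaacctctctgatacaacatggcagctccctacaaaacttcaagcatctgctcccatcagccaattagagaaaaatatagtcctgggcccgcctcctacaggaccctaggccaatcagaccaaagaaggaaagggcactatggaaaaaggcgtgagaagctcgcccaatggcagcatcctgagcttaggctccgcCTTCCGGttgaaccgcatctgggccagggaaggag
Ndufaf4: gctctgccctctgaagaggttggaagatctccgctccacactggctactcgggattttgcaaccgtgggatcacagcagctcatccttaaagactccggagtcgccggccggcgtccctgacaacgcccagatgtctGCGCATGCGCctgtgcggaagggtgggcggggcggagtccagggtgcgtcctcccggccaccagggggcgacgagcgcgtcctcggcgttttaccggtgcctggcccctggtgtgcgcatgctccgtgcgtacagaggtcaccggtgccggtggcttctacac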

How the data were processed

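The files deposited for the 12 libraries hold whole-number counts of reads on each gene, with no normalization by the authors. Their tool list names FastQC, Trimmomatic, STAR, HTSeq, and DESeq2, and the genome build, versions, and strand setting are not given in the sources used here. Libraries were TruSeq stranded, polyA-selected, and grouped by the labels. Doses and hours come from the study's text. Gene identifiers were matched without versions to GENCODE M21 (42548 of 43626), and reads on no feature were left out of library sizes (6.71% to 9.27% of gene counts).

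Genes were kept by filterByExpr, scaled by TMM, and fitted in edgeR 4.0.16 (R 4.3.3) with 1 mean per condition over 12 libraries (quasi-likelihood test). P-values were adjusted by Benjamini-Hochberg over 14308 genes, with calls made below an adjusted p of 0.05. Errors of log2 fold changes are SEs of this fit, and CPM carry the SD over 3 libraries. Within-set values are log2 ratios of CPM + 0.5 and carry no error. Members and lists were chosen with earlier results of these data known. Genes named were all mitochondrial members, complex II, Cyc1, isoform pairs, up to 2 called members per direction and group for LPS, the lowest p for 3′SL, and called regulators and the 2 largest changes per direction of each list, and others named (Uqcrc2 or Tfam, for example) were chosen after their values were seen.

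Tested on simulated data with set effects as found and 200 of 13951 genes changed 2-fold, this fit recovered 17.4% of them for LPS against PBS and the block fit 84.3%. The simulation gave all genes 1 fixed spread and changed few of them, so these shares do not carry over to the real comparison. Alternatives used DESeq2 1.42.0, sva 3.50.0, other scalings and filters, and left-out libraries. 1 member is not named here.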

Additional observations from a re-analysis of the deposited data

How the results depend on the processing

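For LPS against PBS, 17 nuclear members were called, and 56 with total counts, 7 with all genes of at least 1 count, 27 with the library set block, 35 with that block without set 3, 82 with the block and total counts together (an alternative chosen after seeing the data), 4 with at least 1.5-fold also required, and 10 to 18 with 1 library left out (10 without the set 1 PBS library, 11 without the set 1 LPS, set 2 PBS, or set 2 LPS library). For mitochondrial members, 1 was called, and 0 with total counts, 0 with at least 1 count, 0 with only the conditions compared, 2 with DESeq2, 4 with the block, 2 with the block without set 2, 5 with the block without set 3, 5 (all lower) with the block and total counts, 0 at 1.5-fold, 3 at an unadjusted p, and 0 to 2 with 1 library left out. Over all genes, 6666 of 14308 were called in the main fit. The number was 9372 with total counts, 7079 with DESeq2, 6150 with at least 1 count, and 6513 with only the conditions compared. It was 8549 with the block and 1.095e+04 with the block and total counts. With the block but without set 2 or set 3 it was 6766 and 8496. Without the set 1 PBS, set 1 LPS, set 2 PBS, or set 2 LPS library it was 5632, 6146, 5585, and 5878. The cause of these differences was not tested.

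For 3′SL against PBS, 1 mitochondrial member was called by DESeq2, by the block, and by the block without set 3, and 2 at an unadjusted p. Over all genes these 3 fits called 164, 841, and 1104. For LPS + 3′SL against LPS, 2 nuclear members were at an unadjusted p under 0.05. The block without set 3 called 1 mitochondrial member there, among 1126 of all genes. For the interaction 1 mitochondrial member was at an unadjusted p under 0.05. With 1 library left out, no member was called in these 3 comparisons. For LPS + 3′SL against 3′SL, 12 members were called, and 22 with total counts, 20 with DESeq2, 7 with at least 1 count, 4 with only the conditions compared, 22 with the block, 6 and 37 with the block without set 2 and set 3, 3 at 1.5-fold, 19 at an unadjusted p, and 7 to 13 with 1 library left out (7 without either set 2 library). Over all genes, 5157 were called in the main fit and 7475 with total counts. DESeq2 called 5643, the filter of at least 1 count gave 4556, and only the conditions compared gave 4140. With the block it was 7287, and 5132 and 7353 without set 2 and set 3. Without the set 2 3′SL or LPS + 3′SL library it was 4085 and 4311.

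With total counts the medians for LPS against PBS turned to -0.58 (nuclear) and -0.32 (mitochondrial), against -0.71 for all genes. With 1 library left out they were 0.04 to 0.11 and 0.15 to 0.46. The nuclear median was -0.14 for 3′SL against PBS with total counts. For LPS + 3′SL against LPS it was 0.0736 with total counts, -0.0616 with the block without set 2, and -0.0731 to 0.0449 with 1 library left out, positive without the set 3 LPS + 3′SL library. For the interaction it was 0.21 with total counts and -0.0269 to 0.118 with 1 library left out, negative without the set 2 LPS + 3′SL or the set 3 LPS library. The mitochondrial median was 0.12 to 0.46 for 3′SL against PBS with 1 library left out, lowest without the set 3 PBS library.

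With total counts these called members turned negative for LPS against PBS: mt-Co1 (-0.15), Ndufa1 (-0.40), Ndufs4 (-0.12), Uqcrb (-0.31), Uqcrc2 (-0.25), Uqcrfs1 (-0.32), Cox6b1 (-0.34), Cox6c (-0.36), Cox7a2 (-0.22), Atp5b (-0.37), and Atp5f1 (-0.25), as did Dld (-0.0812), Gabpa (-0.30), and Immt (-0.35). For LPS + 3′SL against 3′SL, Cyc1 (-0.20), Uqcrc2 (-0.11), Uqcrfs1 (-0.16), Cox6b1 (-0.21), Cox7a2 (-0.0927), and Atp5f1 (-0.14) did. The motif shares moved by less than 1 percentage point with subunits only. The labels number no replicates, so the library sets served as the pairing for within-set values and the block fits. The main fit and its calls held no pairing.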
